A study of Mus musculus with 16 samples.

Results

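The P2X receptors are a family of 7 ion channel genes, P2rx1 to P2rx7, and all 7 were found by symbol among the 22609 genes counted in every library. P2X receptors open when extracellular ATP binds to them and let cations into the cell. Each channel is a trimer, and P2X2 and P2X3 subunits can join in one channel, which carries ATP signals in many visceral and nociceptive afferents. P2X4 and P2X7 are best known from macrophages and glia. The 7 genes were picked because P2rx2 reads lay almost all in one ganglion, so the level of P2rx2 in that ganglion is given below as a description with no test.

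Sensory neurons had been sorted from 4 ganglia of the mouse, with 4 libraries per ganglion and 16 in all. TG is the trigeminal ganglion of the head, NG/JG is the nodose and jugular complex of the vagus nerve, and L3-L5 DRG and T10-L1 DRG are lumbar and thoracolumbar dorsal root ganglia. All groups came from untreated young adult C57BL/6J mice, labelled male, that carried Pirt-cre and a Rosa26-LSL-tdTomato reporter. Pirt-cre switches TdTomato on in sensory neurons, and live cells with bright TdTomato were taken in 2 cycles of cell sorting. A library is named by its ganglion and the number in its label, such as NG/JG 4. How many animals gave a library is not given in the sources used here, so every p-value measures the spread between libraries only. A library pools the RNA of many cells, in which fewer neurons with a transcript and less transcript per neuron cannot be told apart.

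Libraries held 4735624 to 13333318 reads on genes, and 3 reads, taken as the lowest count to read as a level, equalled 0.225 to 0.633 CPM, a gene's reads scaled to a common total of reads on genes. All 16 libraries had reads of the 12 neuron markers, whose summed level was 1295 to 14337 CPM. They also held RNA of satellite glia (10 markers, 13231 to 64546 CPM) and of myelinating Schwann cells (8 markers, 8371 to 55493 CPM). The X-inactivation transcript Xist had 1279 to 8362 reads in every library and 13 genes of the Y chromosome had 0 reads, which goes against the male label. TG 1 and NG/JG 4 differed most from the other libraries of their ganglion, and L3-L5 DRG 4 had the fewest reads on genes with 66.6% of its uniquely placed reads outside genes. T10-L1 DRG 1, with 51.5% outside genes, was kept. These 3 libraries, below called those that stood apart, were chosen after seeing the data. Where a result below rests on one of the 3, its value without them is given too.

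Levels are given as CPM where ganglia are compared for one gene, and as RPKM, which is CPM divided by the exon length in kilobases, where genes are compared. Most of the P2X RNA in the spinal and trigeminal libraries was that of P2rx3, P2rx4 and P2rx7, and P2rx2 joined them in NG/JG. P2rx1, P2rx5 and P2rx6 were under 5 RPKM in every library except NG/JG 2, where P2rx5 stood at 13.4 RPKM. The summed RPKM of the 7 genes was lowest in TG 3, at 38.5, and highest in NG/JG 3, at 692.

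**Figure D1:**
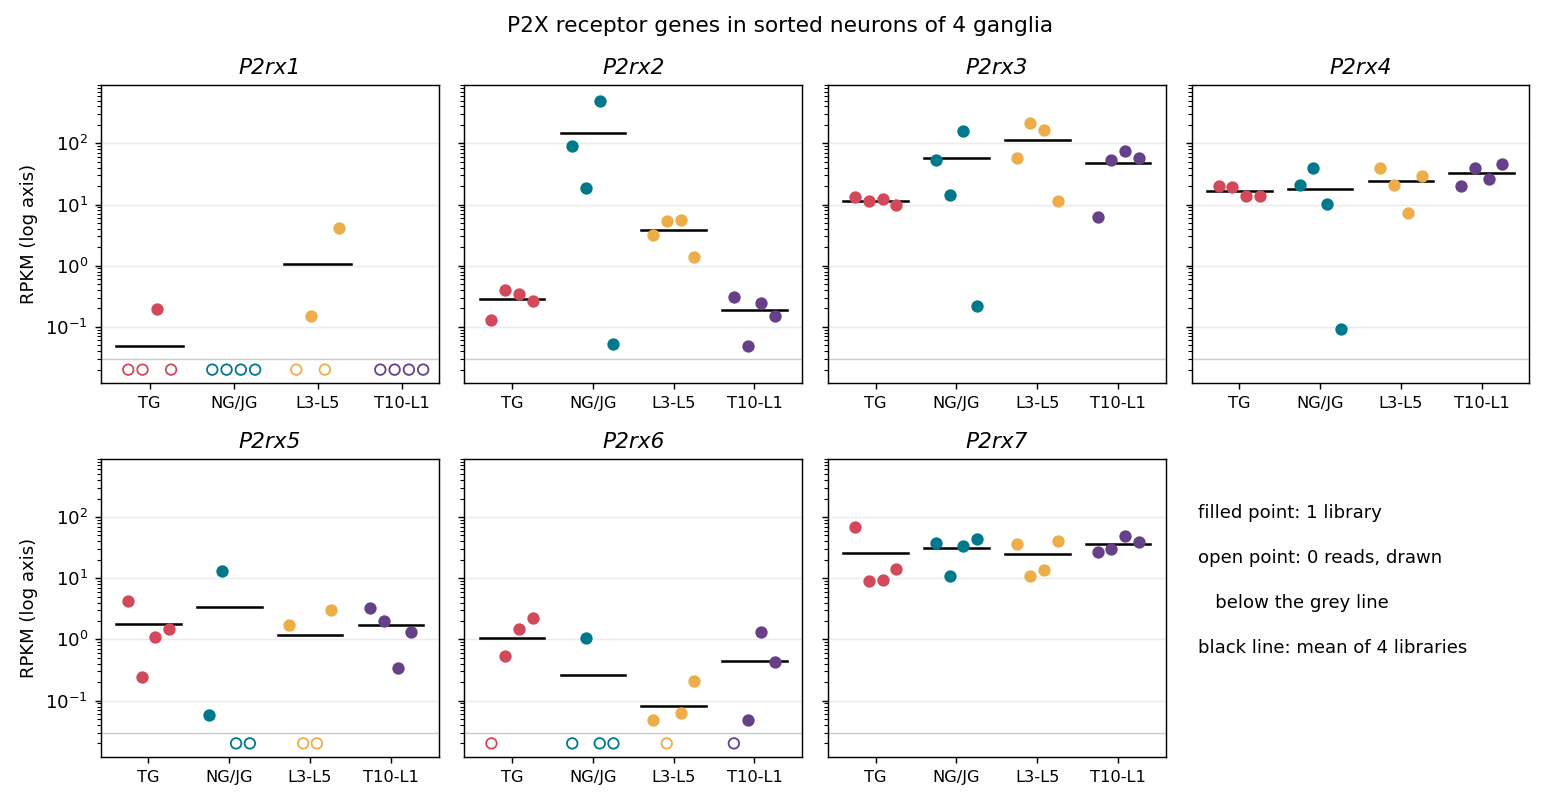
RPKM of the 7 P2X receptor genes on a log axis, 1 panel per gene and 1 point per library, with the 4 ganglia along the horizontal axis, the mean of 4 libraries as a black line and libraries with 0 reads drawn as open points below the grey line. P2rx2 lies between 18.5 and 488 RPKM in NG/JG 1 to 3 and at 0.0521 RPKM in NG/JG 4, and NG/JG 4 is also the lowest library for P2rx3 and P2rx4.

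P2rx2 encodes a subunit with slow desensitisation that forms channels alone or with P2X3, and lies at chr5:110768831-110772168 on the minus strand (mm9). Of 8970 P2rx2 reads, 8626 lay in the NG/JG libraries, or 96.2%. NG/JG 1 had 1304 reads (181 CPM), NG/JG 2 had 323 reads (36.8 CPM), NG/JG 3 had 6998 reads (967 CPM) and NG/JG 4 had 1 read (0.103 CPM). These libraries ran from the highest P2rx2 level of the 16 to one of the lowest, and NG/JG 3 alone held 78.0% of the reads.

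Outside NG/JG the gene was low but not equally low. L3-L5 DRG had 65, 106, 132 and 13 reads in libraries 1 to 4, or 6.32, 10.5, 10.9 and 2.75 CPM. TG had 2, 4, 4 and 3 reads, and T10-L1 DRG had 4, 1, 6 and 4 reads, all under 0.8 CPM and close to the 3-read floor. Each L3-L5 DRG library was thus above every TG and every T10-L1 DRG library, and NG/JG 1 to 3 were above all L3-L5 DRG libraries.

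By mean RPKM the order of P2rx2 was NG/JG (149.5 ± 229, SD, n = 4), L3-L5 DRG (3.84 ± 1.94), TG (0.284 ± 0.117) and T10-L1 DRG (0.189 ± 0.114). The only neighbours in this order whose libraries did not overlap were L3-L5 DRG and TG. As a description, the mean CPM of NG/JG was higher than that of the 12 other libraries by 6.70 on the log2 scale, by 4.67 without NG/JG 3 and by 7.11 without NG/JG 4. The mean RPKM of P2rx2 in NG/JG without NG/JG 4 was 199 ± 253 (SD, n = 3).

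P2rx2 among the other ganglia is also given as a description with no p. It passed the filter on low counts only through L3-L5 DRG, the group where it was high, and it was not past the filter in TG against T10-L1 DRG. L3-L5 DRG differed from T10-L1 DRG by a log2 fold change of 4.28 (SE 1.03, edgeR), with means of 7.62 and 0.375 CPM. That of TG over L3-L5 DRG was −3.35 (SE 1.15), with means of 0.564 and 7.62 CPM. P2rx2 was the 1 member without overlap of CPM in each of these pairs, where 2.17% of all genes were higher in every L3-L5 DRG library than in T10-L1 DRG and 12% were lower in every TG library than in L3-L5 DRG.

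P2rx3 encodes the fast-desensitising subunit of small, mostly non-peptidergic nociceptors and had over 100 reads in every library except NG/JG 4. It lies at chr2:84838740-84877619 on the minus strand (mm9), and 1.83% of its exon length overlaps Ssrp1 on the other strand. TG was low and even, with 288, 159, 200 and 156 reads (36.6, 31.3, 34.4 and 27.4 CPM). L3-L5 DRG had 1620, 6077, 5547 and 152 reads, or 158, 603, 457 and 32.1 CPM. T10-L1 DRG had 116, 1540, 2522 and 2133 reads, or 17.7, 147, 207 and 160 CPM.

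One library in each spinal group, L3-L5 DRG 4 and T10-L1 DRG 1, thus stood within or below the TG range, while the other 3 were above it. NG/JG had 1089, 346, 3229 and 6 reads, or 152, 39.4, 446 and 0.620 CPM. By CPM NG/JG 1 to 3 thus lay above TG, NG/JG 2 only narrowly, and NG/JG 4 far below it. Scaling factors over the 16 libraries (TMM), which CPM leaves out, were 0.769 to 0.945 in TG and 1.09 in NG/JG 2. The place of NG/JG 2 above TG therefore depends on the scaling. By mean RPKM the order was L3-L5 DRG (112 ± 94.4, SD, n = 4), NG/JG (57.2 ± 72.3), T10-L1 DRG (47.7 ± 29.1) and TG (11.6 ± 1.43), and the libraries of all neighbours overlapped. The place of NG/JG rested on NG/JG 3, without which its mean was 22.9 RPKM, below T10-L1 DRG. The mean was 76.2 RPKM in NG/JG without NG/JG 4 and 145.5 RPKM in L3-L5 DRG without L3-L5 DRG 4.

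P2rx3 was lower in TG than in L3-L5 DRG by a log2 fold change of −2.93 (SE 0.74), with means of 32.4 and 312 CPM. The adjusted p was 0.0859 by edgeR and 0.00409 by DESeq2. By edgeR without the 3 libraries that stood apart it was 0.00695, with a log2 fold change of −3.39, in a fit that called 19.4% of all genes tested. That fit leaves out L3-L5 DRG 4, the lowest L3-L5 DRG library for P2rx3. By edgeR the adjusted p was 0.0525 without TG 1 alone and 0.0504 without L3-L5 DRG 4 alone. Against T10-L1 DRG the change of P2rx3 in TG was −1.69 on the log2 scale (SE 0.60), with means of 32.4 and 133 CPM and adjusted p of 0.126 by edgeR and 0.0561 by DESeq2. In the test of any difference among the 4 ganglia P2rx3 had an unadjusted p of 0.125 and an adjusted p of 0.454 by edgeR.

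Markers of non-peptidergic nociceptors, the neurons known for P2rx3, had a summed level over 8 genes of 50.1 to 184 CPM in TG, 157 to 2041 CPM in L3-L5 DRG and 178 to 894 CPM in T10-L1 DRG. The lowest L3-L5 DRG and T10-L1 DRG values of this sum were again those of L3-L5 DRG 4 and T10-L1 DRG 1. In NG/JG the sum was 7.51 to 324 CPM, and its highest value, that of NG/JG 2, was above the TG range. Mrgprd, a marker in this list, had 0.207 to 1.93 CPM in NG/JG against 25.3 to 808 CPM in L3-L5 DRG. Other markers of the list thus made up most of the 324 CPM of NG/JG 2. Summed neuron markers were 1295 to 4730 CPM in TG, 2013 to 14337 CPM in L3-L5 DRG and 2539 to 5360 CPM in T10-L1 DRG. Their medians were 3552, 8200 and 3469 CPM. The part of these lists in the P2rx3 difference was not tested.

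The balance of P2rx2 and P2rx3, the pair that can share a channel, was unlike in NG/JG and elsewhere as a matter of how the genes were picked. The ratio of P2rx2 to P2rx3 RPKM was 1.68 in NG/JG 1, 1.31 in NG/JG 2 and 3.05 in NG/JG 3. In NG/JG 4 it was 0.235 on 1 and 6 reads, which is under the read floor. In these 3 libraries P2rx2 thus exceeded P2rx3 per length of all exons, and in no library of the other ganglia did it. With the longest transcript as length the ratio was 1.13 in NG/JG 1, 0.881 in NG/JG 2 and 2.05 in NG/JG 3, so that P2rx2 was then below P2rx3 in NG/JG 2, and it was at most 0.0808 outside NG/JG.

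The ratio was 0.0245 to 0.120 in L3-L5 DRG, 0.00977 to 0.0354 in TG and 0.000914 to 0.0485 in T10-L1 DRG. T10-L1 DRG libraries 2 to 4 held P2rx3 at 147 to 207 CPM with 1 to 6 reads of P2rx2. Over the 16 libraries the Pearson r of log2(CPM + 1) between P2rx2 and P2rx3 was 0.49, given as a description of libraries that share a ganglion within each group.

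**Figure D2:**
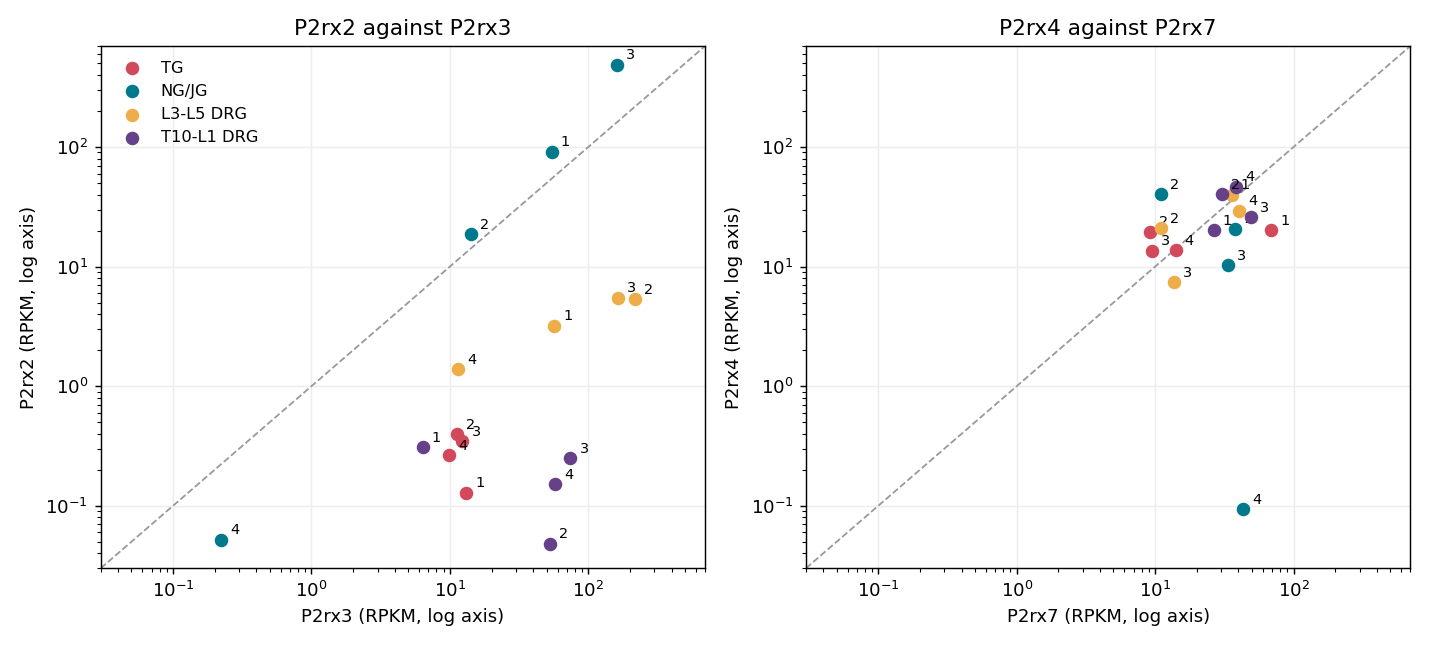
RPKM of P2rx2 against P2rx3 (left) and of P2rx4 against P2rx7 (right) on log axes, 1 point per library coloured by ganglion and numbered by replicate, with the line of equal RPKM dashed. NG/JG 1 to 3 lie above the line in the left panel and all other libraries below it. NG/JG 4 lies apart at the low end of P2rx3 in the left panel and at the bottom of the right panel.

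P2rx4 and P2rx7 are neighbours on one strand of chromosome 5. In mm9, the build the authors aligned to, P2rx7 spans chr5:123093920-123141441 and P2rx4 spans chr5:123157593-123179747, with 16151 bp between them. RefSeq promoters of GRCm38.p6 were available for 4 of the 7 members. Those of P2rx7, at chr5:122643677-122643926, and P2rx4, at chr5:122707294-122707543, are shown because these neighbours were read very unequally in NG/JG 4. The table held a second P2rx7 entry, at chr5:122650133-122650382, and the one printed lies further upstream. Each is the 250 bases before the start, on the plus strand, with matches on either strand to the TATA box (TATAAA), the CCAAT box, the GC box (GGGCGG) or the AP-1 site (TGACTCA) in capitals.
P2rx7: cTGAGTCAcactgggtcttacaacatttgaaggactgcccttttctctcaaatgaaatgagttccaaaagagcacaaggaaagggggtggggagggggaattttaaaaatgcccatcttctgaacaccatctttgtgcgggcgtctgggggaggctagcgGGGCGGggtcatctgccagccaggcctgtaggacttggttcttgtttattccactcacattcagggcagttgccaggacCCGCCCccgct
P2rx4: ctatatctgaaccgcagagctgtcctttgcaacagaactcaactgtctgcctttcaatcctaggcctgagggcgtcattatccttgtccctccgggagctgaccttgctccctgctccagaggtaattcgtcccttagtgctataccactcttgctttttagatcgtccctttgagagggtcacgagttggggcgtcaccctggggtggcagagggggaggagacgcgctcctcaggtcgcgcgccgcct
The P2rx7 stretch matched the GC box once on each strand and the AP-1 site once on the minus strand, and the P2rx4 stretch matched none of the 4 motifs, nor did the second P2rx7 entry. Among 32851 mouse promoters of the same window, 32.7% held the GC box, 4.46% the AP-1 site, 12.4% the TATA box and 33.8% the CCAAT box. The P2rx4 stretch held 13 CpG, the P2rx7 stretch 6 and the second P2rx7 entry 4.

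P2rx7, whose channel opens at high ATP levels and can widen to a pore, had over 250 reads in every library. TG had 3011, 256, 306 and 443 reads, or 382, 50.4, 52.6 and 77.8 CPM, so TG 1 was far above the other TG libraries and was the highest of all 16. NG/JG had 1491, 534, 1345 and 2303 reads (207, 60.8, 186 and 238 CPM). L3-L5 DRG had 2035, 613, 912 and 1058 reads (198, 60.8, 75.1 and 223 CPM), and T10-L1 DRG had 960, 1763, 3328 and 2830 reads (147, 168, 274 and 212 CPM).

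All T10-L1 DRG libraries were thus above TG 2 to 4, while NG/JG 2, L3-L5 DRG 2 and L3-L5 DRG 3 lay within the range of TG 2 to 4. By mean RPKM the order was T10-L1 DRG (36.2 ± 10.2, SD, n = 4), NG/JG (31.3 ± 14.1), TG (25.5 ± 29.2) and L3-L5 DRG (25.2 ± 15.1), with overlap of all neighbours. Without TG 1 the TG mean was 10.9 ± 2.76 (SD, n = 3).

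The 1 library TG 1 decided the P2rx7 comparison of TG with T10-L1 DRG. With all libraries P2rx7 in TG differed from T10-L1 DRG by −0.26 on the log2 scale (SE 0.59, adjusted p = 0.846 by edgeR). Without TG 1 the difference was −1.33 (SE 0.30), with an adjusted p of 0.0102, in a fit that called 26.7% of all genes tested and 12.5% as lower in TG. In NG/JG over TG the log2 fold change of P2rx7 was 0.23 (SE 0.69) with all libraries and 1.33 (SE 0.54, adjusted p = 0.249) without TG 1.

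TG 1 also had the lowest summed neuron markers of the 16 libraries, 1295 CPM, and the highest summed Schwann cell myelin markers, 55493 CPM, against 24169 to 37721 CPM in TG 2 to 4. Its satellite glia markers, 10 genes, summed to 33644 CPM, below the 54657 to 64546 CPM of TG 2 to 4. Its macrophage markers, 12 genes, summed to 4615 CPM, within the 2214 to 8350 CPM of the other TG libraries. P2rx7 RNA is known from Schwann cells, satellite glia and macrophages, and the part of these cells in its level was not tested. NG/JG 4 had 238 CPM of P2rx7 with summed myelin markers of 9328 CPM, satellite glia markers of 30377 CPM and macrophage markers of 320 CPM.

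P2rx4, a subunit held largely in lysosomes, had 527, 330, 262 and 257 reads in TG (45.02 to 66.9 CPM). L3-L5 DRG had 1353, 699, 297 and 460 reads (132, 69.4, 24.5 and 97.1 CPM), and T10-L1 DRG had 437, 1397, 1038 and 2049 reads (66.8, 133, 85.3 and 154 CPM). NG/JG had 494, 1166, 246 and 3 reads, or 0.310 CPM in NG/JG 4 and up to 133 CPM in NG/JG 2. The ganglia overlapped throughout, and only NG/JG 4 lay at the floor.

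By mean RPKM P2rx4 stood in the order T10-L1 DRG (33.1 ± 12.2, SD, n = 4), L3-L5 DRG (24.4 ± 13.7), NG/JG (17.8 ± 17.1) and TG (16.8 ± 3.64). Without NG/JG 4 the NG/JG mean was 23.7 ± 15.1 (SD, n = 3), which is above the L3-L5 DRG mean of 22.7 ± 16.3 (n = 3) without L3-L5 DRG 4. The ratio of P2rx4 to P2rx7 RPKM was 0.553 in NG/JG 1, 3.65 in NG/JG 2, 0.305 in NG/JG 3 and 0.00217 in NG/JG 4. In the 12 other libraries it was 0.292 to 2.15, so NG/JG 2 and NG/JG 4 lay outside the range of those libraries, above and below it. Their Pearson r over the 16 libraries was −0.06.

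NG/JG 4 thus had 1 read of P2rx2, 6 of P2rx3 and 3 of P2rx4 beside 2303 of P2rx7, out of 9675318 reads on genes. Its summed neuron markers were 3550 CPM, against 1835, 5848 and 6541 CPM in NG/JG 1 to 3. The sum was carried by abundant genes such as Snap25, at 1258 CPM. For 5 of the 12 markers NG/JG 4 was the lowest NG/JG library. Among them were Elavl4 with 9 reads (against 62.9 to 237 CPM in NG/JG 1 to 3) and Pirt with 20.2 CPM. For every other marker of the list NG/JG 1 was the lowest. Nefl, for example, had 147 CPM in NG/JG 1 against 566 CPM in NG/JG 4, and Tubb3 had 241 against 446 CPM. The part of neuron content in the P2X counts of NG/JG 4 was not tested. NG/JG 4 also had reads on the fewest genes of the 16 libraries, 10132.

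P2rx5 (chr11:72973923-72986187, mm9), whose channel gives small currents alone, was detected above 3 reads in 10 of 16 libraries. NG/JG 2 had 281 reads (32.0 CPM), or 44.6% of all its 630 reads, while NG/JG 1, 3 and 4 had 1, 0 and 0. TG had 80, 3, 15 and 20 reads, L3-L5 DRG had 42, 0, 0 and 34, and T10-L1 DRG had 51, 51, 10 and 42. Group means were 1.18 to 3.35 RPKM with overlap of all ganglia, and T10-L1 DRG was the only ganglion above the floor in all 4 libraries.

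P2rx6 (chr16:17561978-17577893, mm9), which needs partner subunits to reach the membrane, had 231 reads in all and passed 3 reads in 7 libraries. TG had 0, 11, 34 and 51 reads, NG/JG had 0, 37, 0 and 0, L3-L5 DRG had 2, 0, 3 and 4, and T10-L1 DRG had 0, 2, 64 and 23. Group means were 0.0805 to 1.06 RPKM. Of its exon length, 13.9% overlaps Slc7a4 on the other strand, so that reads of the overlap cannot be told apart without strand. P2rx6 did not pass the filter on low counts in TG against L3-L5 DRG, but did so without the 3 libraries that stood apart, through TG alone. As its L3-L5 DRG libraries then had 2, 0 and 3 reads, no p is read from that fit.

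P2rx1 (chr11:72812605-72828702, mm9), known from smooth muscle and platelets, had 58 reads in all, of which 51 lay in L3-L5 DRG 4 (10.8 CPM), 4 in L3-L5 DRG 2 and 3 in TG 3. The 13 other libraries had 0 reads, which allows a level of up to 0.225 to 0.590 CPM, depending on the library. Summed platelet markers, 6 genes, were 2.68 to 388 CPM in L3-L5 DRG and 20.3 to 491 CPM in TG. Mural and endothelial markers, 10 genes, were 58.2 to 1717 CPM and 116 to 497 CPM. In L3-L5 DRG 4 the 2 sums were 42.2 and 1717 CPM. The platelet sum of 388 CPM was that of L3-L5 DRG 1, which had 0 P2rx1 reads. The part of these cells was not tested.

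**Figure D3:**
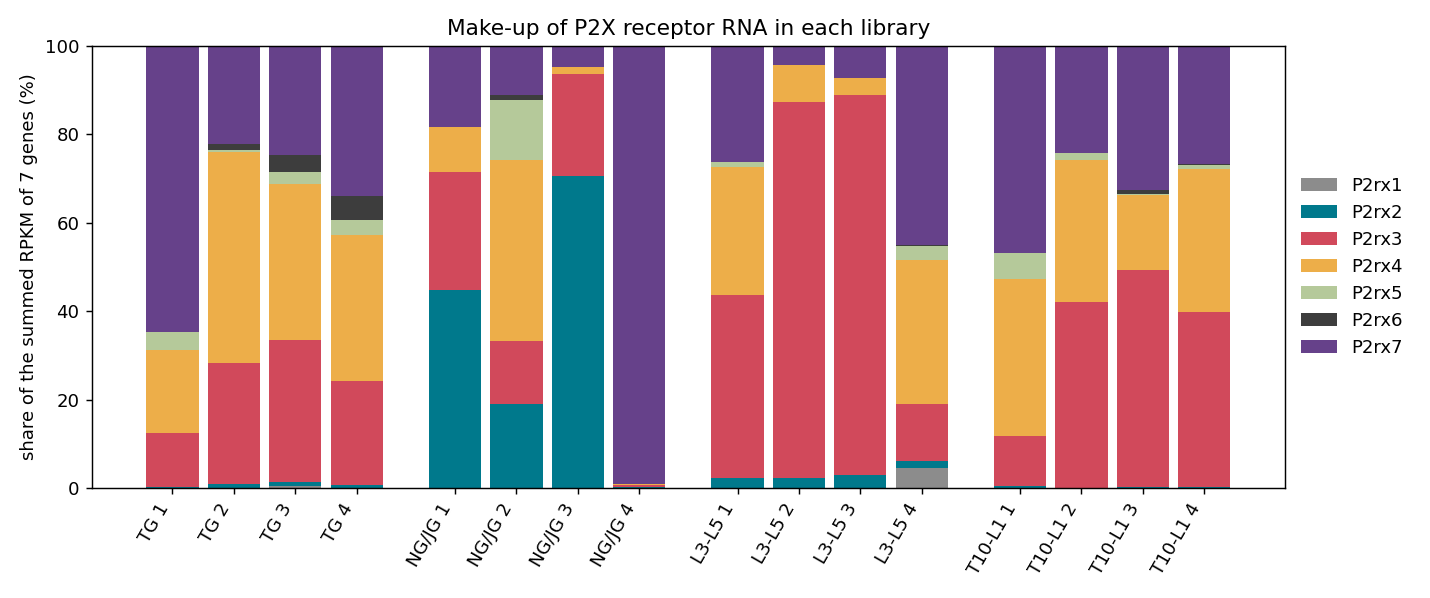
Share of each P2X gene in the summed RPKM of the 7 genes, 1 stacked bar per library, grouped by ganglion. P2rx2 makes 44.8%, 18.9% and 70.5% of the bar in NG/JG 1 to 3, P2rx7 makes 99.2% in NG/JG 4, and P2rx3 makes 12.8% to 86.1% in L3-L5 DRG.

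As shares of the summed RPKM, the make-up of the family varied within each ganglion. P2rx3 was the first-ranked member in 3 of 4 L3-L5 DRG libraries and in 3 of 4 T10-L1 DRG libraries, with P2rx7 first in the remaining library of each. In TG, P2rx4 and P2rx7 each led in 2 libraries. With the longest transcript as length the first member changed in 2 of the 16 libraries, to P2rx3 in TG 3 and to P2rx4 in TG 4. In NG/JG, P2rx2 led in 2 libraries, P2rx4 in NG/JG 2 and P2rx7 in NG/JG 4.

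In each pair of ganglia, calls and p were read for members other than P2rx2 only. In NG/JG against L3-L5 DRG, edgeR called 0 of 3 members tested, as it called 0% of all genes. In NG/JG against T10-L1 DRG it called 0 of 4 beside 0.0322% of all genes, and in NG/JG against TG 0 of 5 beside 0.051%. No member of these 3 pairs had an unadjusted p under 0.05, where 6.04%, 5.91% and 10% of all genes did, and DESeq2 called none, beside 4.82%, 6.14% and 6.39%.

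In TG against L3-L5 DRG, edgeR called 0 of the members other than P2rx2, beside 0% of all genes. P2rx3 had an unadjusted p under 0.05 there, as 18.2% of genes did, and DESeq2 called it beside 11.3%. No p is read for P2rx2, for the reason given above. In TG against T10-L1 DRG, edgeR called 0 of 5 members beside 5.87%, with P2rx3 under 0.05 unadjusted beside 21.6%, and DESeq2 called 0 beside 15%. In L3-L5 DRG against T10-L1 DRG, edgeR again called 0 of the members other than P2rx2, beside 0%. None of them had an unadjusted p under 0.05, beside 6.07%, and DESeq2 called 0 beside 0.488%.

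The intervals of the log2 fold changes, taken as 1.96 SE on each side, were wide, and the edgeR test allows for more spread than they do. For P2rx3 in NG/JG over TG the interval was −0.20 to 4.30 around a log2 fold change of 2.05. Without the 3 libraries that stood apart it was 0.93 to 4.02 around 2.47, with an unadjusted p of 0.0153 and an adjusted p of 0.111 by edgeR. In NG/JG over TG the interval of P2rx4 was −2.27 to 1.94. For P2rx7 in NG/JG over T10-L1 DRG it was −1.02 to 0.78, the narrowest of any member in a pair with NG/JG. In the test among the 4 ganglia edgeR called 0 of the 5 members tested, at adjusted p of 0.454 to 0.993, beside 3.01% of all genes. None of the 5 had an unadjusted p under 0.05, against 17.5% of all genes, and DESeq2 called 0 beside 12.7%.

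**Figure D4:**
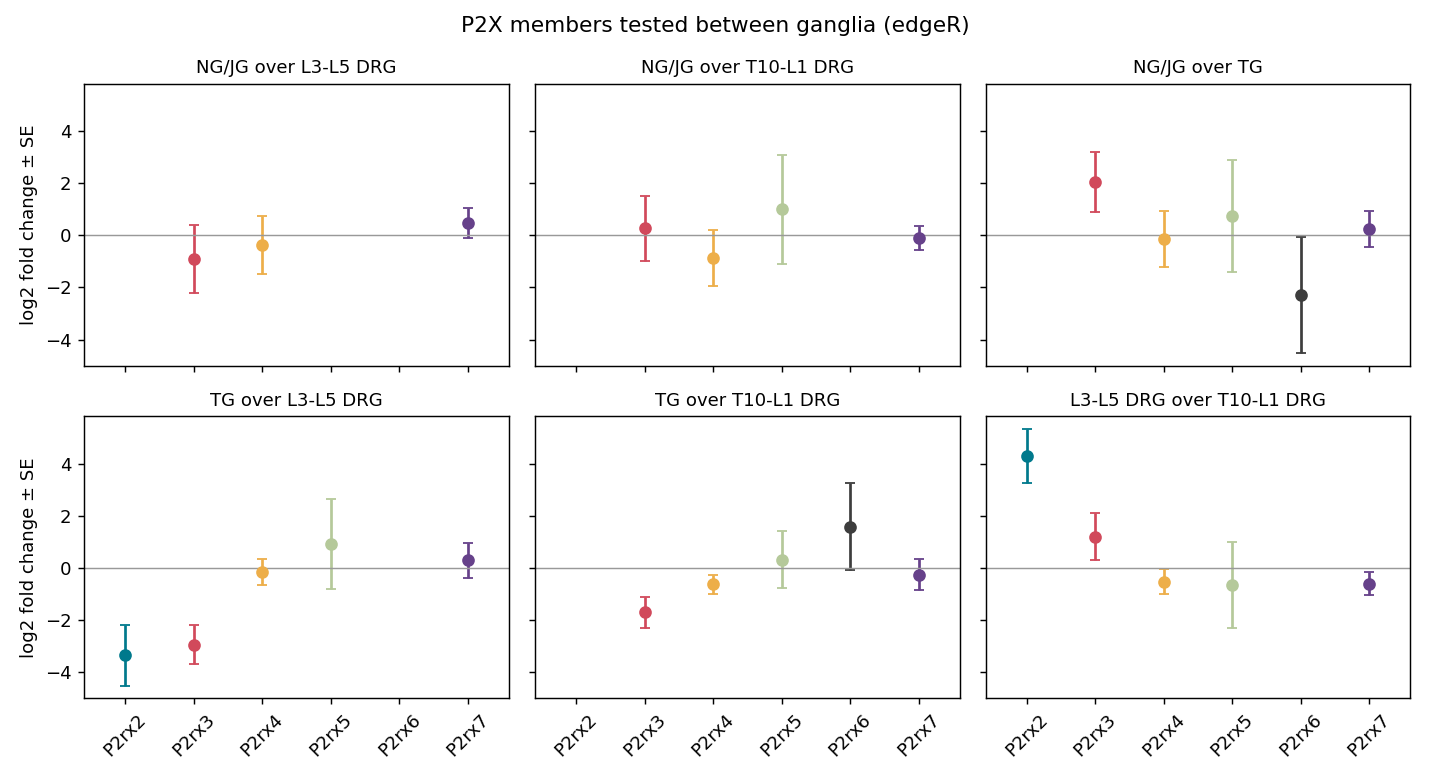
Log2 fold change with its SE (edgeR, all libraries) of the P2X members tested in each of the 6 pairs of ganglia, the first ganglion over the second. P2rx2 is drawn only in 2 pairs, where it passed the filter on low counts through L3-L5 DRG alone and stands at −3.35 and 4.28, and P2rx3 lies at −2.93 in TG over L3-L5 DRG.

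Genes with the most similar profile over the 16 libraries were ranked by Pearson r of log2(CPM + 1) among 13052 genes, as a description of libraries that share ganglia and depth. For P2rx2 they were Nhlh2 (r = 0.88), Tmc3 (0.87) and Slc5a7 (0.85), the last encoding the choline transporter, with Spearman rho of 0.82, 0.76 and 0.63. Nhlh2 had a mean of 43.8 CPM in NG/JG, 5.99 CPM in L3-L5 DRG, 1.81 CPM in TG and 0.689 CPM in T10-L1 DRG, the order of P2rx2. For P2rx3 they were Kcnt1 (0.95), a sodium-activated potassium channel, Ankrd13d (0.93) and Fbxl2 (0.92), with rho of 0.92, 0.89 and 0.88.

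For P2rx7 the most similar profiles were those of Nid1 (0.90), Dnm2 (0.89) and Cdc42se1 (0.88), with rho of 0.74, 0.83 and 0.79. For P2rx4 they were Hltf (0.95), Arap1 (0.95) and Usp39 (0.95), with rho of 0.81, 0.79 and 0.92. For P2rx5 they were Mdm1 (0.89), Sept10 (0.88) and Sox2ot (0.85), with rho of 0.90, 0.93 and 0.76. For P2rx6, on 231 reads, they were Tm2d2 (0.78), Calr3 (0.78) and Mphosph6 (0.77), with rho of 0.70, 0.87 and 0.71. For P2rx1, on 58 reads, they were Apol10b (0.94), Abca13 (0.88) and Veph1 (0.80), with rho of 0.28, 0.30 and 0.49.

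The other genes of ATP and adenosine signalling were 36, and all were measured. They were 8 P2Y receptors, 4 adenosine receptors, 6 genes of ATP release, 11 of nucleotide hydrolysis and 7 of adenosine handling. By mean RPKM over the ganglia the highest of each list were P2ry12 (22.0), Adora1 (11.7), Gja1 (46.9), Entpd2 (119) and Adk (133). Entpd2, an ectonucleotidase that hydrolyses ATP, shares 28.7% of its exon length with Npdc1 on the same strand, so its level is uncertain.

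Of the 36 genes, edgeR called 1 in any pair, and the calls of DESeq2 are given further below. Adk, the kinase that turns adenosine to AMP, was lower in TG than in T10-L1 DRG by a log2 fold change of −1.31 (SE 0.32, adjusted p = 0.0413). Adk had 72.2 to 93.8 CPM in TG and 161 to 337 CPM in T10-L1 DRG, without overlap, as 13.2% of all genes were lower in every TG library of that pair. Over 14 alternatives its log2 fold change was −1.52 to −1.17. The call was kept in 5 of them, of which the fits without TG 1 and without the 3 libraries that stood apart are one fit. It was lost when any T10-L1 DRG library, or TG 2, TG 3 or TG 4, was left out (adjusted p of 0.0717 to 0.133), with the replicate block (0.0934) and with all 16 libraries in one fit (0.404). In that pair 28 of the 36 passed the filter on low counts, of which 0 were higher and 6 lower in TG at an unadjusted p under 0.05. That is near the share of all genes with such a p in either direction, 21.6%.

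In NG/JG against L3-L5 DRG 25 of the 36 were tested, with 1 higher and 2 lower in NG/JG at an unadjusted p under 0.05. Of all genes, 6.04% had such a p there in either direction. In NG/JG against T10-L1 DRG 26 were tested, with 0 higher and 1 lower, beside 5.91% of all genes. In NG/JG against TG 25 were tested, with 1 higher and 0 lower, beside 10%. In TG against L3-L5 DRG 28 were tested, with 0 higher and 6 lower, beside 18.2%. In L3-L5 DRG against T10-L1 DRG 30 were tested, with 1 higher and 2 lower, beside 6.07%. The tested genes had a median log2 fold change of −0.93 in TG over T10-L1 DRG, where that of all genes was −0.03. It was 0.11, −0.34 and 0.41 in NG/JG over L3-L5 DRG, T10-L1 DRG and TG, −0.31 in TG over L3-L5 DRG and −0.35 in L3-L5 DRG over T10-L1 DRG, where medians of all genes were −0.03 to 0.05. Of the 36, DESeq2 called 0 higher and 2 lower in NG/JG against L3-L5 DRG (beside 4.82% of all genes) and against T10-L1 DRG (6.14%). In NG/JG against TG it called 1 higher and 1 lower (6.39%). In TG against L3-L5 DRG (11.3%) and against T10-L1 DRG (15%) it called 0 higher and 3 lower. In L3-L5 DRG against T10-L1 DRG it called 0 (0.488%).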

How the data were processed

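Read counts per gene were deposited for 16 libraries. Per the labels and methods, the authors sorted TdTomato-positive cells, made cDNA by SMART-seq2 with oligo-dT, sequenced single reads of 50 bp on a HiSeq 3000, demultiplexed (bcl2fastq in the processing notes), aligned with TopHat2 to mm9 and counted with HTSeq. Tool versions, annotation and strand setting are not given in the sources used here. The values are raw counts without molecular identifiers, so the floor of 3 reads covers counting error only. HTSeq summary rows were left out of library sizes. Of reads placed uniquely, 29.6% to 66.6% lay outside genes.

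CPM used reads on genes, and RPKM used the union of exons (GENCODE M1, mm9). Pairs of ganglia were tested on their own 8 libraries with edgeR 4.0.16 (TMM, filterByExpr, quasi-likelihood F test, Benjamini-Hochberg over all genes, called under an adjusted p of 0.05), and all 16 libraries with an F test. DESeq2 1.42.0 in R 4.3.3 was an alternative, beside other scalings, no filter, a replicate block and each library left out. Fits were tested on simulated data. No pair of the 21 member pairs shared a 50-base word of transcript. All 7 members are named. Other genes of the lists are named by an edgeR call or by the highest RPKM of their list. An unadjusted p under 0.05 without overlap in an NG/JG pair, met by none, would also name a gene. The members and lists were chosen with earlier results of these data known.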

Additional observations from a re-analysis of the deposited data

Results flagged for a closer look

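In 5 of 26 groups of 4 libraries, counting each P2X gene in each ganglion with any reads, 1 library lay apart from the other 3 by Dixon's test. Chance gives this in about 1 of 20 groups of normally spread values, which does not hold for low counts, and with 3 libraries at 0 reads any reads in the other are enough. P2rx7 in TG 1 was at 382 CPM, with the other TG libraries at 50.4 to 77.8 CPM. P2rx5 in NG/JG 2 was at 32.0 CPM, with the others at 0 to 0.139 CPM, and P2rx6 in the same library was at 4.21 CPM, with 0 reads in the others. P2rx1 in L3-L5 DRG 4 was at 10.8 CPM on 51 reads, and P2rx1 in TG 3 was at 0.515 CPM, which is 3 reads.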

How the results depend on the processing

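The number of P2X members called by edgeR was 0 in each pair and among the 4 ganglia, where few or no genes at all were called in most pairs, so a repeated 0 says nothing of stability. It became 1 in TG against L3-L5 DRG with DESeq2 (P2rx3, beside 11.3% of all genes). P2rx3 was also the 1 member counted there without TG 1, NG/JG 4 and L3-L5 DRG 4 (beside 19.4%), a set chosen after seeing the data. In TG against T10-L1 DRG the number became 1 without TG 1 (P2rx7, beside 26.7%), with the same result for that set. Fits of P2rx2, and that of P2rx6 in TG against L3-L5 DRG, are not counted. In those fits each held more than a few reads only in the group where it was high. Beyond the libraries left out, the cause was not tested. With the replicate number as a block, 0 members were called in any pair. Deviations of same-numbered libraries from their group means had a mean r of 0.01 to 0.10 per pair of ganglia. Single values were −0.11 to 0.17. Whether equal numbers share animals or a batch was not tested. Over 14 alternatives, the log2 fold change of P2rx2 was 3.96 to 4.57 in L3-L5 DRG over T10-L1 DRG and −3.84 to −3.06 in TG over L3-L5 DRG. That of P2rx3 was −3.50 to −2.29 in TG over L3-L5 DRG and −2.06 to −1.34 in TG over T10-L1 DRG. All genes called in TG against T10-L1 DRG numbered 758 by edgeR, 2194 by DESeq2 and 3583 by edgeR without TG 1, and 0 with the block and in 4 of the fits without another library. Among the 4 ganglia they numbered 429, and 33 to 1869 over the alternatives. P2rx1 passed the filter on low counts in no pair, P2rx6 in 2 of 6 and P2rx5 in 5, with an SE of 1.08 to 2.16 for P2rx5. With the longest transcript as length, P2rx3 in TG was at 17.9 RPKM in place of 11.6, and with library sizes scaled by TMM at 13.9 RPKM.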
